A study of Mus musculus with 4 samples.

Results

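The mRNAs of the receptors for serotonin, acetylcholine, noradrenaline and adrenaline were examined in mouse cortex carrying human amyloid transgenes. Genes were taken by name, as every protein-coding gene whose symbol begins with Htr and a digit, Chrm and a digit, Chrn and a subunit letter, Adra or Adrb. The pattern found 39 of the 15353 protein-coding genes counted. They comprised 12 serotonin receptors, 5 muscarinic and 11 nicotinic acetylcholine receptor genes and 9 adrenergic receptors. The other 2 were receptor kinases, Grk2 and Grk3, whose older symbols Adrbk1 and Adrbk2 begin like those of the beta-adrenergic receptors. These kinases are described apart and enter no family. A further 7 annotated receptor genes that fit the pattern had no protein-coding transcript matched to them among those counted. They were Htr2b, Htr3b, Chrna9 and the muscle nicotinic subunits Chrnb1, Chrnd, Chrne and Chrng.

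APP denotes male APPswe/PS1ΔE9 mice at 12 months, which carry human APP with the Swedish mutation and the PS1ΔE9 transgene on a C57BL/6 background. WT denotes wild type mice of the same sex and age, C57BL/6 in the labels and C57BL/6J in the methods, and the methods did not describe them as littermates. In this line the prion protein promoter drives both transgenes, and it is active in neurons and in other cells of the brain. Each group had 2 cortex libraries, APP-3 and APP-4 against WT-1 and WT-2, and the labels did not tie them to named animals, so that every p-value measures the spread between these samples only.

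Serotonin and noradrenaline reach the cortex from small brainstem nuclei, and acetylcholine mainly from the basal forebrain. Their receptors sit on cortical pyramidal cells, interneurons, glia and incoming axons. Most are G protein-coupled. Receptors of the Gq type (Htr2a, Htr2c, Chrm1, Chrm3, Chrm5 and the Adra1 genes) activate phospholipase C, those of the Gi type (Htr1 genes, Htr5a, Chrm2, Chrm4, Adra2 genes) inhibit adenylyl cyclase, and those of the Gs type (Htr4, Htr6, Htr7, Adrb genes) stimulate it. The nicotinic subunits and Htr3a form ion channels. Loss of cholinergic input and a lower density of several of these receptors are known features of Alzheimer's disease tissue.

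The libraries held 28525117 to 43881196 counts. Levels are given in CPM, a gene's counts in 1000000 counts of the scaled library total. App was at 2687 and 2384 CPM in APP-3 and APP-4 against 856 and 905 in WT-1 and WT-2. App and Prnp were both higher in APP, with log2 fold changes of 1.53 and 1.72. The labels give the genotype as APP/PS1 and do not mention Prnp. Astrocyte, oligodendrocyte and microglia markers were higher in APP, with 2 of 5, 3 of 5 and 4 of 5 genes at an adjusted p under 0.05. Of 4 markers of cortical excitatory neurons 0 passed, although all 4 had fold changes below 0, and Slc17a7 fell short at -0.28 (adjusted p = 0.0604). Of 7 interneuron markers 1 passed, Pvalb, which was lower in APP (-0.54, adjusted p = 0.0466). The 4 hypothalamic markers counted were all higher in both APP libraries. Of these, 3 (Avp, Oxt and Sim1) passed, with 0 to 2 counts in each WT library. Markers of endothelium, choroid plexus and habenula gave 0 calls. Of 6 thalamic markers 0 passed, but 4 (Tcf7l2, Slc17a6, Prkcd and Zic1) had an unadjusted p under 0.05 in edgeR's quasi-likelihood test and were higher in both APP libraries, and the list median was 0.37. The 9 striatal markers were all higher in APP-4 than in APP-3, and their summed levels were 192 and 413 CPM in APP-3 and APP-4 against 284 and 303 in WT-1 and WT-2. The part of tissue composition in the receptor results was not tested. In bulk tissue, fewer cells of a type and less RNA per cell cannot be told apart.

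In WT cortex the muscarinic family held the highest receptor mRNA levels. On a per-length scale, CPM per kilobase of transcript, the mean WT levels were 19.7 ± 0.889 (SD, n = 2) for Chrm1 and 18.7 ± 1.06 for Chrm3, the major Gq-coupled muscarinic receptors. These neighbours overlapped, with 20.29 and 19.04 in WT-1 and WT-2 for Chrm1 and 19.46 and 17.97 for Chrm3. Chrm4, a Gi-coupled receptor, followed at 9.30 ± 0.0209. Next came Chrnb2 at 6.52, Chrm2 at 5.73, Chrna7 at 5.26, Htr2c at 5.19, Adra1a at 4.80 and Htr2a at 4.72, and the levels of Chrna7 and Htr2c differed by less than the spread of either (0.525 and 0.688). Chrnb2, Chrna4 and Chrna7 encode the subunits of the main nicotinic receptors of the forebrain. Together they made up 80.1% of the summed mean WT level of the nicotinic family on this per-length scale. The lowest level per length was that of Chrna2 at 0.0511. The muscle subunit gene Chrna1 stood at 1.57 CPM per kilobase and Chrna5 at 1.42. These 2 overlapped, with 1.49 and 1.64 in WT-1 and WT-2 for Chrna1 and 1.51 and 1.32 for Chrna5. Of the 50-base windows of the Chrna1 transcript, 3.02% also occur in the predicted gene Gm48735.

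**Figure D1:**
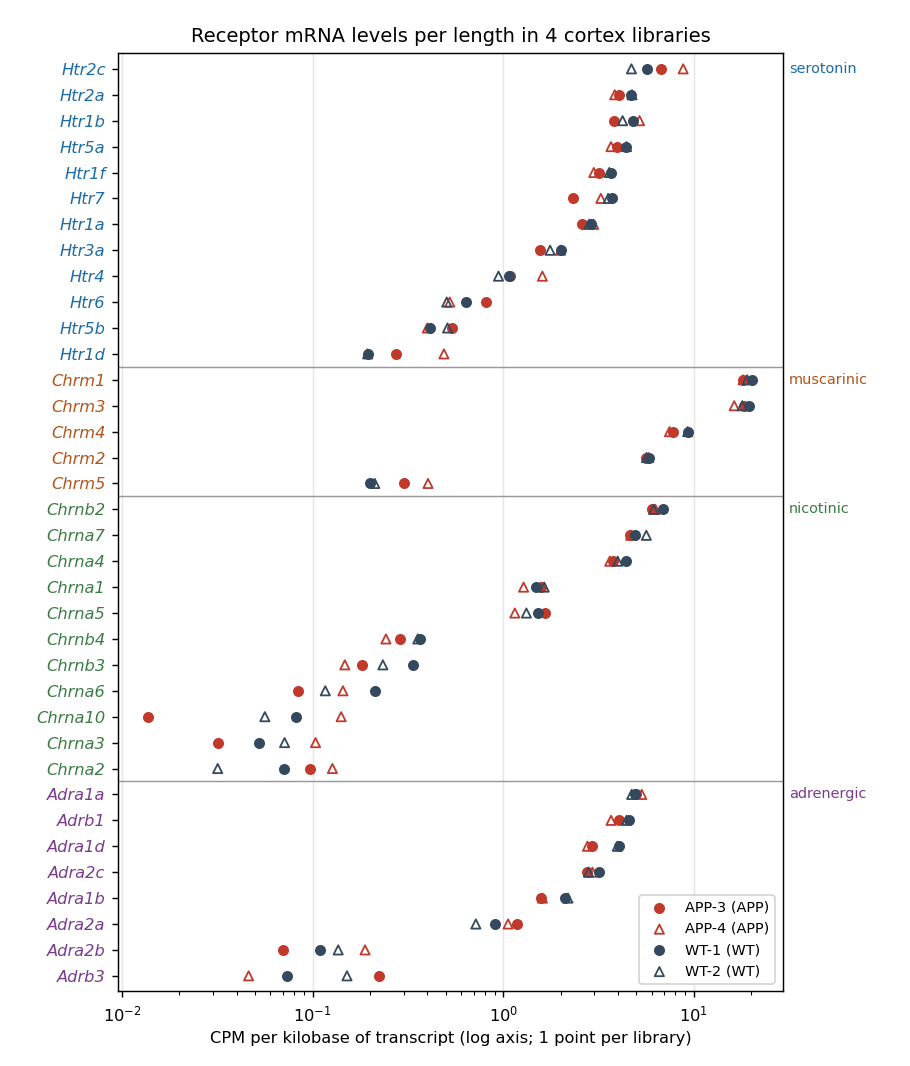
Level of the receptor genes shown in each library, in CPM per kilobase of transcript on a log axis, with 1 point per library and genes ordered within families by their WT level. Chrm1 and Chrm3 lie farthest to the right, and the nicotinic genes spread from Chrnb2 at 6.52 down to Chrna2 at 0.0511 in WT.

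Which of these receptors differed between APP and WT cortex was the question of the comparison. In edgeR's quasi-likelihood test, 0 of the 39 genes passed an adjusted p of 0.05, against 1.22% of all 23455 features (1.06% higher and 0.162% lower in APP). At an unadjusted p under 0.05 there were 10 of the 37 receptors (27.0%), 4 higher and 6 lower in APP, against 10.9% of all features (6.89% higher and 4.03% lower) and 13.8% of protein-coding genes. DESeq2 found 4 at an unadjusted p under 0.05, and edgeR's exact and likelihood ratio tests found 9 each. Each of these 3 tests called 1 member at an adjusted p of 0.05, and it was Htr2c.

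The fold changes of the receptors lay more often below 0 than above it. The median log2 fold change was -0.077 over the 37 receptors, with 24 below 0, and 0.0047 over all features, of which 49.0% were below 0. In 13 receptors both APP libraries were below both WT libraries, and in 7 both were above, against 19.8% and 21.0% of all features. The count below 0 stayed between 23 and 25 when any library was left out. Split after the values were seen, the 27 receptors with a mean of at least 1 CPM had a median of -0.12 with 23 below 0, and all 13 receptors that were lower in both APP libraries were among them. Protein-coding genes of the same range of CPM had a median of 0.0038, with 49.0% below 0. With 1 library left out, the count below 0 among the 27 was 18 to 22. The 10 receptors under 1 CPM had a median of 0.18, and only Chrna6 among them was below 0.

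**Figure D2:**
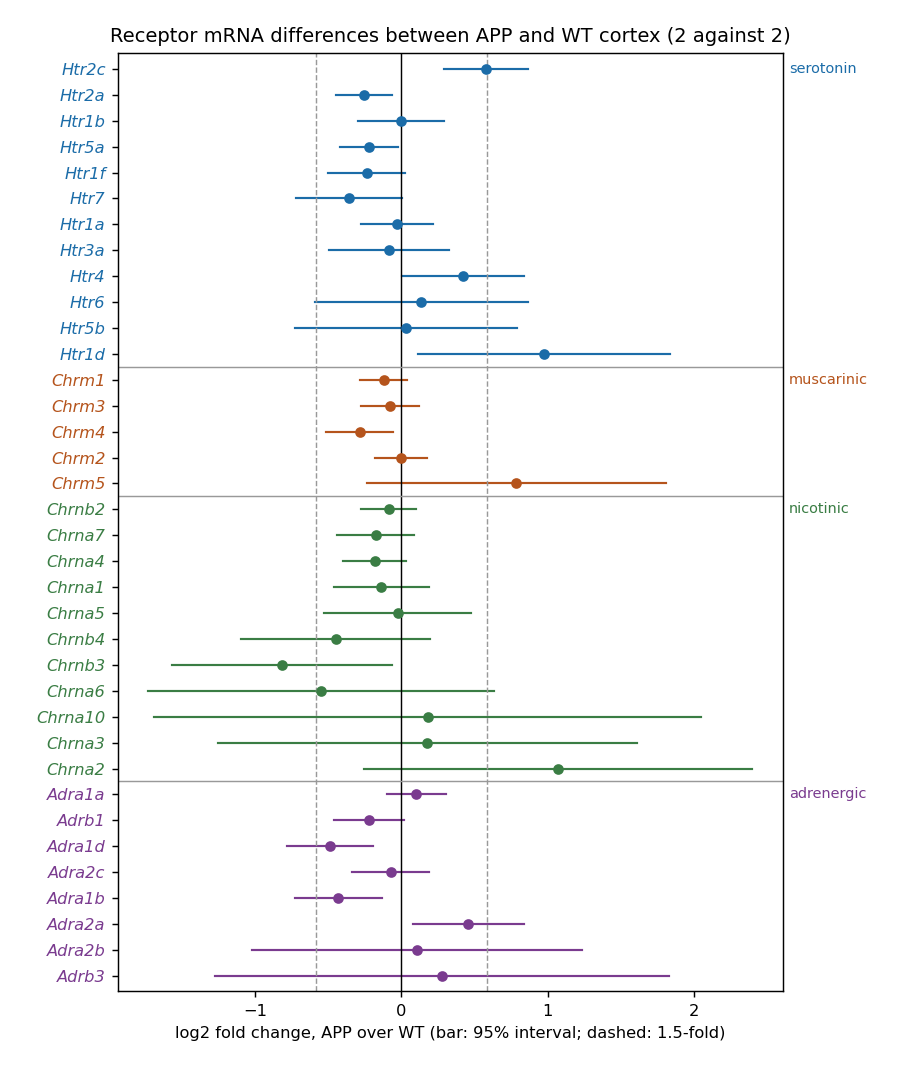
Log2 fold change of the receptor genes shown, APP over WT, from edgeR's quasi-likelihood fit, with 95% intervals as bars and the 1.5-fold lines dashed. Points of the better expressed genes crowd to the left of 0 within narrow intervals, Htr2c lies to the right at 0.58, and the low genes have the widest bars.

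The 4 families differed little in their medians. The median log2 fold change was -0.016 for the serotonin receptors (7 of 12 below 0), -0.077 for the muscarinic receptors (4 of 5), -0.14 for the nicotinic subunits (8 of 11) and -0.074 for the adrenergic receptors (5 of 9). Summed over each family, muscarinic mRNA was 172 and 168 CPM in APP-3 and APP-4 against 187 and 177 in WT-1 and WT-2. The nicotinic sum was 77.9 and 77.4 CPM against 87.9 and 82.2, and the adrenergic sum 61.8 and 61.5 against 66.5 and 63.9. All 3 sums were lower in both APP libraries, with APP means of 0.935, 0.913 and 0.946 times the WT means. The serotonin sum, at 126 and 144 CPM against 136 and 129, overlapped between the groups. Two-sided exact permutation tests of the sums gave p = 0.333 for the first 3 families, which is the smallest value that 2 samples against 2 allow, and p = 1 for serotonin. By signalling type, the medians were -0.10 for 8 Gq-coupled receptors, -0.0037 for 11 Gi-coupled, 0.016 for 6 Gs-coupled and -0.11 for 12 channel subunits, so that each type held values on both sides of 0.

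**Figure D3:**
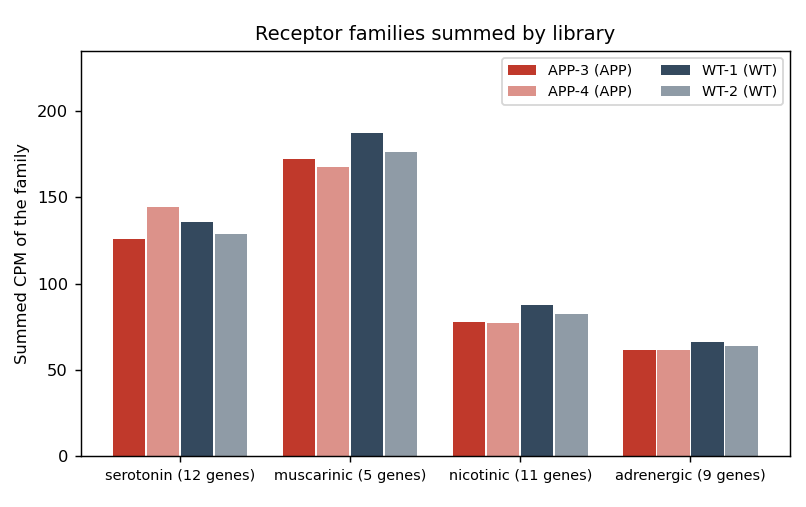
Summed CPM of the genes of each receptor family, with 1 bar per library and the axis starting at 0. Muscarinic, nicotinic and adrenergic bars are lower in both APP libraries than in both WT libraries, and the APP-4 serotonin bar, at 144, is the tallest of its family.

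Among the serotonin receptors, Htr2c came nearest to the threshold. It encodes a Gq-coupled receptor whose transcript is known for adenosine-to-inosine editing, and it lies on the X chromosome (GRCm38 chrX:146962513-147197277, plus strand). The levels of its coding transcript were 32.0 and 41.7 CPM in APP-3 and APP-4 against 27.0 and 22.3 in WT-1 and WT-2. Both APP libraries were above both WT libraries, and APP-4 was the highest. The log2 fold change was 0.58 ± 0.13 (SE), with a 95% interval from 0.29 to 0.87 and an adjusted p of 0.0703. The adjusted p ran from 0.00366 in the likelihood ratio test to 0.146 over the other tests, filters and scalings. Without APP-3 the log2 fold change was 0.75, and without APP-4 it was 0.37. Without WT-1 it was 0.72 and without WT-2 0.45. Each of these fits leaves 1 library in a group, so their p-values are not given. Its noncoding transcripts, counted 82 and 162 times in the APP libraries and 167 and 88 times in the WT libraries, overlapped between the groups (log2 fold change 0.35, adjusted p = 0.731).

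Htr2a, the nearest relative of Htr2c in the list and also Gq-coupled, lies on chromosome 14 (GRCm38 chr14:74640840-74709494, plus strand). Its levels were 22.8 and 21.6 CPM in APP-3 and APP-4 against 26.3 and 26.6 in WT-1 and WT-2, lower in both APP libraries. The log2 fold change was -0.26 ± 0.087, with a 95% interval from -0.45 to -0.063 and an adjusted p of 0.267. The intervals of Htr2c and Htr2a did not overlap. The ratio of Htr2c to Htr2a counts, which no scaling of the libraries alters, was 1.40 and 1.94 in APP-3 and APP-4 against 1.02 and 0.841 in WT-1 and WT-2.

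The sequences just upstream of this pair are shown, since the related genes had fold changes of opposite sign. They are the RefSeq promoter windows of build GRCm38.p6, from 250 bases before the RefSeq start and ending 1 base before the first base of the gene in GENCODE M21, 5′ to 3′ on the plus strand. Capitals mark the reverse complement of GGGCGG, the GC box of Sp1-type factors.
Htr2c, chrX:146962263-146962512: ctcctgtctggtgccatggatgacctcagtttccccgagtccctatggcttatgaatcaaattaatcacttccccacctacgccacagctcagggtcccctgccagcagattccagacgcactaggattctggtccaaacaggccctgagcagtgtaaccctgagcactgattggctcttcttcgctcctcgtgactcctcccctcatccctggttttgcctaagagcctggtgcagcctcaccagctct
Htr2a, chr14:74640624-74640839: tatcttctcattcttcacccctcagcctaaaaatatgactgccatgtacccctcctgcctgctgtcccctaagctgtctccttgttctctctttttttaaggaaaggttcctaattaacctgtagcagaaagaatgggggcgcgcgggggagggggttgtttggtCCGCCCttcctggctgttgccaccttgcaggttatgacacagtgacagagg

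The Htr2a window held 1 GGGCGG and the Htr2c window 0, searched on both strands. Of 32851 RefSeq promoter windows of 250 bases, 32.7% held this motif. The Htr2a window shown is shorter than these, at 216 bases. Neither window held CACGTG (6.02% of all windows) or TGACGT (6.47%), which could share bases with each other. The Htr2c window had 5 CpG dinucleotides and the Htr2a window 4, where the median of all windows was 6. These matches describe the letters only.

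Among the remaining serotonin receptors, values lay on both sides of WT. Htr5a, a Gi-coupled receptor, was lower in both APP libraries, at 21.1 and 19.8 CPM against 23.82 and 23.83 (log2 fold change -0.22, adjusted p = 0.377), and Htr1f was likewise lower at 8.19 and 7.70 CPM against 9.46 and 9.28 (-0.24, adjusted p = 0.509). Htr1d, a presynaptic Gi-coupled receptor, was counted 23 and 44 times in APP-3 and APP-4 against 25 and 20 times in the deeper WT libraries, or 0.795 and 1.42 CPM against 0.568 and 0.564. Its log2 fold change was 0.97 (adjusted p = 0.370), and the APP libraries differed from each other by 1.78-fold. Htr4, which is Gs-coupled, was at 5.08 and 7.48 CPM against 4.98 and 4.40 (0.42, adjusted p = 0.451). Htr7, also Gs-coupled, was at 5.74 and 8.25 CPM against 9.14 and 8.83 (-0.36, adjusted p = 0.459).

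These latter genes depended on a single APP library. Without APP-3, the log2 fold changes of Htr1d, Htr4 and Htr7 were 1.31, 0.66 and -0.13. Without APP-4 they were 0.49, 0.11 and -0.65. Htr1b, the Gi-coupled autoreceptor of serotonin axon terminals, was 12.9 CPM in APP-3 and 17.3 in APP-4, on either side of the WT values of 15.5 and 14.8. Htr2c, Htr4, Htr1d, Htr7 and Htr1b were all higher in APP-4 than in APP-3, as were the striatal markers, among them Drd2, counted 25 times in APP-3 and 194 times in APP-4. Several of these receptors are known from striatal neurons, and the part of striatal tissue in these values was not tested. Of the other serotonin receptors, Htr1a and Htr3a were also higher in APP-4 than in APP-3. Htr2a, Htr5a, Htr1f, Htr5b and Htr6 were lower in APP-4 than in APP-3. Htr3a, Htr6, Htr1a and Htr5b had log2 fold changes between -0.085 and 0.14, with overlapping groups in each.

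**Figure D4:**
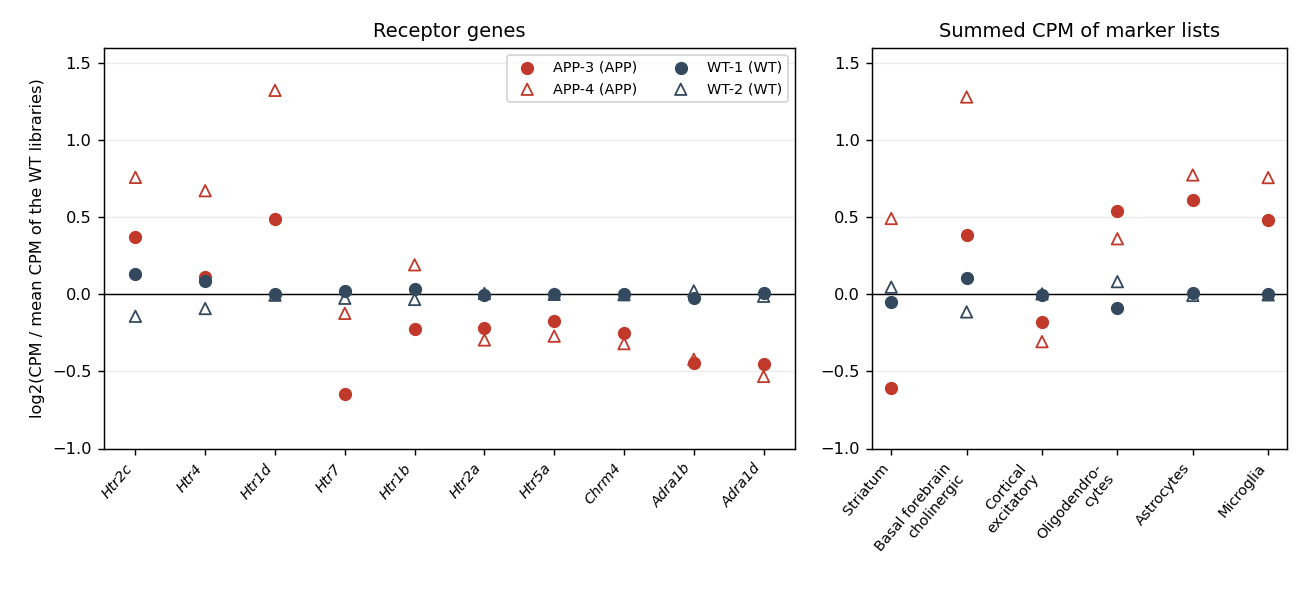
Log2 ratio of the CPM in each library to the mean CPM of the WT libraries, for 10 receptor genes and for the summed CPM of 6 marker lists. In Htr2c, Htr4, Htr1d, Htr7 and Htr1b the APP-4 point is above the APP-3 point, as for the striatal list, whereas in Htr2a, Htr5a, Chrm4, Adra1b and Adra1d both APP points lie below both WT points and close to each other.

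Of the muscarinic receptors, Chrm4 (chromosome 2) had the smallest p. Its levels were 11.2 and 10.7 CPM in APP-3 and APP-4 against 13.41 and 13.37 in WT-1 and WT-2, with no overlap. The log2 fold change was -0.29 ± 0.10 (95% interval -0.52 to -0.055) and the adjusted p 0.311. Chrm4 is Gi-coupled and abundant in striatal projection neurons and in cortex, and unlike the striatal markers it did not separate APP-3 from APP-4. Chrm1, the main postsynaptic muscarinic receptor of pyramidal cells, was also lower in both APP libraries, at 80.5 and 81.4 CPM against 91.1 and 85.1 (-0.12, 95% interval -0.28 to 0.035). Its transcripts ENSMUST00000035444 and ENSMUST00000163785 kept similar shares, the first holding 78.1% to 82.0% of the gene's counts in every library. Chrm3 was at 48.2 and 42.0 CPM against 49.4 and 45.7 (-0.077), with overlap.

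Chrm2, the Gi-coupled receptor that also acts as the autoreceptor of cholinergic axons, was 32.0 and 32.9 CPM against 32.9 and 32.1. The 95% interval of its log2 fold change was -0.18 to 0.17. Chrm5 was close to the lower end of detection, with 14 and 20 counts against 14 and 12. Its log2 fold change of 0.79 had an interval from -0.24 to 1.81.

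The nicotinic subunits of the cortex moved little. Chrna4 was lower in both APP libraries, at 17.2 and 16.5 CPM against 20.1 and 18.2 (log2 fold change -0.18, adjusted p = 0.548). Chrna7, which forms homomeric channels, was also lower in both, at 9.61 and 9.70 CPM against 10.2 and 11.7 (-0.18, adjusted p = 0.663). Chrnb2, the partner of Chrna4, was at 38.4 and 40.2 CPM against 44.1 and 39.3, and the groups overlapped (-0.086, 95% interval -0.27 to 0.10). The 3 genes thus had intervals that reached no farther than -0.44.

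Chrnb3, an accessory subunit best known from dopaminergic and visual pathways, had the smallest p of the family. It was counted 24 and 21 times in the APP libraries against 68 and 38 times in the WT libraries, or 0.830 and 0.677 CPM against 1.55 and 1.07. This gave a log2 fold change of -0.82 ± 0.34 with an adjusted p of 0.399. Its neighbour Chrna6, only 3481 bases away on chromosome 8 (GRCm38) and read from the opposite strand, had 7 and 13 counts against 27 and 12 (-0.55). In the chromosome 9 cluster, Chrna5 and Chrna3 lie 2331 bases apart and Chrna3 and Chrnb4 1591 bases apart. Their log2 fold changes were -0.026 for Chrna5 (interval -0.53 to 0.48), 0.18 for Chrna3 (-1.25 to 1.61) and -0.45 for Chrnb4 (-1.10 to 0.20). These intervals overlapped and each spanned no change, so they cannot decide whether the partners shared a direction. Chrna3 had 4 to 14 counts per library and Chrna10 1 to 11. Chrna2 had 10 and 14 counts against 11 and 4, and its log2 fold change of 1.07 had an interval from -0.25 to 2.40.

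Chrna1, the muscle subunit, was at 6.88 and 5.61 CPM against 6.55 and 7.19 (-0.14). Its antisense RNA Chrna1os was counted 21 and 18 times in APP against 12 and 13 times in WT, with a log2 fold change of 1.04 and an adjusted p of 0.437. The libraries were strand-specific. Whether the counting kept the strands apart was not stated. Skeletal muscle markers were at 6.29 and 3.77 CPM in sum in APP-3 and APP-4 against 7.46 and 6.37.

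Adrenergic receptors of the Gq-coupled alpha group had the smallest p-values of their family. Adra1d (chromosome 2) was at 5.57 and 5.25 CPM in APP-3 and APP-4 against 7.66 and 7.53 in WT-1 and WT-2, a gap wider than the spread within either group. Its log2 fold change was -0.49 ± 0.13, with a 95% interval from -0.78 to -0.20 and an adjusted p of 0.146. Adra1b (chromosome 11) was at 5.26 and 5.35 CPM against 7.05 and 7.28, again without overlap, with a log2 fold change of -0.43 ± 0.13 and an adjusted p of 0.214. Adra1d and Adra1b did not pass the threshold under any of the other tests, filters and scalings. Without APP-3 the log2 fold change of Adra1d was -0.54. Adra1a, the third gene of the group and the highest in level, was above WT in both APP libraries, at 20.8 and 22.2 CPM against 20.4 and 19.7 (0.10, 95% interval -0.10 to 0.30). That interval did not overlap those of Adra1d and Adra1b.

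The Gi-coupled Adra2a, the autoreceptor of noradrenergic neurons that also sits on cortical pyramidal cells, was higher in both APP libraries. It was at 5.74 and 5.12 CPM against 4.39 and 3.47 (log2 fold change 0.46 ± 0.17, adjusted p = 0.327). The 2 WT libraries differed by 1.26-fold, and without WT-2 the log2 fold change was 0.31. Adra2c overlapped between the groups (-0.074). Of the Gs-coupled receptors, Adrb1, the main beta receptor of cortical neurons, was lower in both APP libraries at 12.0 and 10.9 CPM against 13.5 and 13.1 (-0.22, adjusted p = 0.497). Adrb3 and Adra2b, with 4 to 23 counts per library, had intervals wider than 1 on both sides of 0.

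The 2 receptor kinases phosphorylate active G protein-coupled receptors. Grk2 was at 80.9 and 83.7 CPM in APP-3 and APP-4 against 101.8 and 90.2 in WT-1 and WT-2 (log2 fold change -0.22 ± 0.078, adjusted p = 0.286), lower in both APP libraries. Without APP-4 its log2 fold change was -0.25. Grk3 was at 131 and 127 CPM against 132 and 131 (-0.027, 95% interval -0.17 to 0.12). Over the list of 7 receptor kinases and arrestins, 0 passed the adjusted threshold and 5 were below 0. In edgeR's quasi-likelihood test 1 (Grk2) had an unadjusted p under 0.05, against 10.9% of all features. Grk5 and Grk6 had log2 fold changes of -0.21 and -0.11.

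Of the genes that act with these receptors, 1 passed edgeR's quasi-likelihood test. In a list of 10 nicotinic receptor chaperones and Ly6 proteins, Lypd1, a membrane-anchored Ly6 protein that binds nicotinic receptors and dampens their currents, was higher in APP. Its levels were 72.0 and 75.5 CPM in APP-3 and APP-4 against 51.3 and 56.0 in WT-1 and WT-2, and the groups did not overlap. This was a log2 fold change of 0.46 ± 0.077 (95% interval 0.29 to 0.63, adjusted p = 0.0170). With 1 library left out the call was not always kept. The log2 fold change of Lypd1 was 0.49 without APP-3, 0.42 without APP-4, 0.39 without WT-1 and 0.52 without WT-2. Lynx1, a Ly6 protein of the same kind, was at 187 and 178 CPM against 219 and 228 (-0.29 ± 0.065, adjusted p = 0.0710). It passed in DESeq2 (adjusted p = 0.0275), and its adjusted p ran up to 0.123 over the other tests, filters and scalings. Without APP-3 the log2 fold change of Lynx1 was -0.33, and without APP-4 it was -0.25. Without WT-1 it was -0.32 and without WT-2 -0.26. The chaperones Ric3 (-0.04) and Tmem35a (0.09) did not pass. The median of the list was 0.055, with 6 of 10 above 0.

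In the lists of transmitter supply, 0 genes passed the adjusted threshold in edgeR's quasi-likelihood test. In the acetylcholine list, 2 of 6 had an unadjusted p under 0.05 in that test, against 10.9% of all features. Both were higher in APP. Bche, a cholinesterase, was at 7.64 and 4.99 CPM against 2.57 and 4.85 (log2 fold change 0.79, adjusted p = 0.291). Its log2 fold change was 0.46 without APP-3, 1.08 without APP-4, 0.37 without WT-1 and 1.29 without WT-2. Slc18a3, the vesicular acetylcholine transporter, had 4 and 29 counts against 6 and 3 (2.24, adjusted p = 0.348). This value rested on APP-4, since it was 0.28 without that library and 3.0 without APP-3. Slc5a7, the choline transporter, was at 3.98 and 14.3 CPM against 5.96 and 5.11. The list of basal forebrain cholinergic markers was at 5.01 and 9.34 CPM in sum against 4.14 and 3.55, and all 5 of its genes were higher in APP-4 than in APP-3. Its part in the acetylcholine values was not tested.

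In the monoamine list, 3 of 11 genes had an unadjusted p under 0.05 in edgeR's quasi-likelihood test, against 10.9% of all features. All 3 were higher in APP. Ddc, which makes both dopamine and serotonin from their precursors, was at 3.60 and 3.8 CPM against 2.23 and 2.17 (0.75, adjusted p = 0.113). Ddc passed in edgeR's exact and likelihood ratio tests (adjusted p = 0.0300 and 0.0263). Its adjusted p ran up to 0.410 over the other tests, filters and scalings. The log2 fold change of Ddc was 0.78 without APP-3, 0.71 without APP-4, 0.76 without WT-1 and 0.73 without WT-2. Th, the first enzyme of dopamine and noradrenaline synthesis, was at 0.864 and 1.32 CPM against 0.50 and 0.338 (1.36, adjusted p = 0.195), and Slc18a2, the vesicular monoamine transporter, was the third (1.43, adjusted p = 0.277). Without APP-3 the log2 fold change of Th was 1.61, and without APP-4 it was lower than the 1.36 of the full fit. The hypothalamic markers Avp, Oxt and Sim1, from a region that holds dopaminergic neurons, were higher in the same libraries, and their part in these values was not tested.

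The dopamine receptors, which the name pattern leaves out, gave 0 of 4 at an unadjusted p under 0.05 in the same quasi-likelihood test. Drd1 was at 33.8 and 58.1 CPM against 44.8 and 36.7, and Drd2 at 0.864 and 6.25 CPM against 2.93 and 4.32. For both genes the APP libraries lay on both sides of the WT libraries. Drd5 (-0.68) and Drd3 (1.23) had the smallest p of the list, and both overlapped. Drd5 was -1.54 without APP-3 (adjusted p = 0.0223) and -0.12 without APP-4, and Drd3 was 1.84 and -0.027. Of 21 G protein alpha subunits and effectors, 0 passed. In edgeR's quasi-likelihood test 4 had an unadjusted p under 0.05, against 10.9% of all features. These 4 were Plcb1 (-0.20), Plcb4 (-0.26) and Adcy1 (-0.20), which were lower in APP, and Plcb2 (0.92), which was higher. The log2 fold change of Plcb4 was -0.37 without APP-3, -0.16 without APP-4, -0.25 without WT-1 and -0.27 without WT-2. Plcb1 and Plcb4 encode phospholipases C beta, the effectors of Gq. The median of this list was -0.011, with 12 of 21 below 0.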

How the data were processed

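Per the labels and the methods, the authors removed ribosomal RNA, prepared stranded libraries read in pairs of 100 bases, aligned the reads with FANSe2 to Ensembl mouse transcripts, and deposited unnormalised read counts per transcript for those with at least 10 reads. The Ensembl release is not given in the sources used here. The submitters' processing notes list hg19, CASAVA 1.8 and edgeR. A further 4 columns of per-library values and the authors' fold changes, mean levels, p-values and FDR were not used.

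WT columns were matched to samples by number and APP columns to their group only. Rows were matched to GENCODE M21 (98.2%), and protein-coding rows were summed per gene. Deposited symbols vary in capitals (the pattern as written finds 8 genes) and 8274 rows have none, so the pattern was applied ignoring case, also to GENCODE names. Of the receptors, 31 had 1 coding row.

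Counts were compared with edgeR 4.0.16 (quasi-likelihood test, TMM, no covariate) in R 4.3.3, with Benjamini-Hochberg adjustment over 23455 features (common dispersion 0.00818). CPM uses TMM library sizes. DESeq2 1.42.0 was an alternative. On simulated counts modelled on APP against WT (23447 features) the main test called 72% of features changed 2-fold and 22 unchanged ones. The reads carry no molecular identifiers. Members and lists were chosen with earlier results of these data known. Named were the members past the threshold, the 3 with the smallest p and the 3 with the highest level in each family, members whose libraries differed by 1.5-fold at 0.5 CPM or more, and the 2 list genes with the smallest p. Other members are given for completeness. Some single-gene values are not reported here.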

Additional observations from a re-analysis of the deposited data

How the results depend on the processing

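The count of members past the threshold was 0 in the main test. It was 1, Htr2c, with DESeq2, with the exact test or the likelihood ratio test of edgeR, with transcript rows tested singly, and with symbol-bearing rows only. With 1 library left out it was 0 to 4: Adra1d, Htr1d, Htr2c and Htr4 without APP-3, and Grk2, Htr2c and Htr7 without APP-4. Over all features 287 passed, with 570 in the exact test, 624 in the likelihood ratio test and 78 (without WT-1) to 1734 (without APP-3) with 1 library left out. The cause of these shifts was not tested.

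With 1 library left out, the family medians ran from -0.16 to -0.0051 for serotonin, -0.13 (without WT-2) to -0.024 (without APP-4 or WT-1) for muscarinic, -0.22 to -0.055 for nicotinic and -0.26 (without APP-3) to 0.0046 (without WT-2) for adrenergic receptors. The nicotinic median was -0.18 with at least 10 counts in every library, which left 7 members. The log2 fold change of Htr1b, near 0, was 0.00028 without TMM and 0.0016 with TMM over protein-coding features.

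Leaving out 1 library turned the sign of 15 of the genes reported here, near 0 or of few counts. Their log2 fold changes ran from -0.78 to 0.62 for Adra2b, -0.16 to 0.016 for Adra2c, -1.22 to 1.03 for Adrb3, -0.024 to 0.012 for Chrm2, -0.19 to 0.018 for Chrm3, -0.29 to 0.0071 for Chrna1, -2.24 to 0.99 for Chrna10, -0.92 to 0.76 for Chrna3, -0.32 to 0.22 for Chrna5, -0.027 to 1.84 for Drd3, -0.14 to 0.060 for Htr1a, -0.23 to 0.18 for Htr1b, -0.28 to 0.068 for Htr3a, -0.19 to 0.23 for Htr5b and -0.070 to 0.34 for Htr6.

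No paired analysis was possible because the APP columns carry the numbers 3 and 4, which match no sample number in the labels. A library left alone in its group is assumed to vary like the others. The median half-width of the 95% intervals was 0.264 for receptors of at least 1 CPM and 1.16 for those under 1 CPM.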
